A study of Homo sapiens with 6 samples.

Results

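DLD-1 is a human epithelial colorectal cancer cell line, and the clones WT2 and WT37 are 2 of the 3 clones of it that were grown without DOX (doxycycline) and with it. The 4 libraries of WT2 and WT37, out of 6 in all, were compared with DOX against without DOX, with the clone as a block. The remaining 2 libraries, from the clone WT5, were kept out of that comparison and used to look up each gene afterwards. WT2 and WT37 were chosen by measured values, namely the larger size of their change with DOX. The change in these 4 libraries is therefore a description, and none of its p-values supports a claim about clones in general.

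All groups share the background that the sample labels write as DLD.1_TR21_ZEB2, and all clones are labelled ZEB2 WT. The cells without DOX are labelled epithelial and those with DOX mesenchymal, and the series title names an epithelial-to-mesenchymal transition (EMT) mediated by ZEB2. Each clone has 1 library per condition, and the series design text counts the clones as the biological replicates. The labels list no DOX-treated cells that lack the ZEB2 construct, and effects of DOX itself and of ZEB2 cannot be told apart. Dose and duration of DOX were not given in the sources used here.

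ZEB2 is a zinc finger transcription factor that binds E-box DNA through its zinc finger clusters and acts mostly as a repressor. In carcinoma cells it is known for lowering E-cadherin and other junction proteins, which is a central step of EMT. Epithelial sheets are held together by tight junctions, adherens junctions and desmosomes, and an apical and a basal side are kept apart by polarity proteins and directed membrane traffic. During EMT these systems are reduced, keratins give way to vimentin, and cytoskeletal and matrix genes rise.

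Reads counted in genes numbered 5440093 to 7164426 per library. At the level of marker sets, 10 genes of epithelial colorectal cells summed to 8532 CPM (reads of a gene scaled to the library's total, with TMM factors) in WT2 without DOX and 5763 with it. In WT37 the sum went from 6804 to 4181 CPM and in WT5 from 6700 to 5763 CPM. Cells with DOX thus kept a large part of the epithelial marker RNA. Markers of leukocytes, fibroblasts, endothelium, glia and red cells summed to 5.31 to 12.6 CPM per library, with CD14 the highest of them and 3 of the 13 that are in the table at 0 in every library. In bulk RNA, fewer cells of a type and less RNA per cell cannot be told apart.

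ZEB2 itself (ENSG00000169554, chromosome 2, 144364364 to 144524583, minus strand, GRCh38) had few reads. It went from 9 to 20 reads in WT2, from 3 to 22 in WT37 and from 5 to 9 in WT5. Every library with DOX was above the library of its own clone without DOX, but the groups overlapped. WT5 with DOX had the same 9 reads as WT2 without it, and scaled for depth it was lower (1.29 against 1.73 CPM). In the fit of WT2 and WT37 its log2 fold change was 1.65 (SE 0.51), which was not called (adjusted p = 0.0878 in edgeR's fit). This depends on the settings, since edgeR called ZEB2 with no low-count filter (1.65, adjusted p = 0.021) and with the GC trend of each library removed (1.58, adjusted p = 0.0357), the latter an alternative chosen after seeing the data. The kit reads transcript 3' ends, so RNA from a construct without the gene's own 3' end would be missed here.

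A gene was called when edgeR's quasi-likelihood test gave a Benjamini-Hochberg adjusted p under 0.05 over all genes tested. By that rule 751 of 11893 tested genes were called, which is 6.31% of them. Of these, 354 were higher with DOX (2.98%) and 397 were lower (3.34%), and 216 changed by at least 1 on the log2 scale (102 rises and 114 falls). The biological coefficient of variation, the spread that remains between the 2 clones after the block, was 6.9%, and the fit leaves 1 residual degree of freedom. Just inside the threshold stood PPM1H (log2 fold change 0.64), LIN7B (1.40) and TMCC1-DT (2.64), with adjusted p from 0.0497 to 0.04996 in edgeR's fit. Just outside it stood BAIAP2L1 (-0.37) and SNHG8 (-0.37), with adjusted p of 0.0503 and 0.0504 in edgeR's fit.

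The largest of the named falls was that of CLDN7. This gene encodes the tight junction protein claudin-7 (ENSG00000181885, chromosome 17, 7259903 to 7263983, minus strand) and was at 197 and 17.1 CPM in WT2 without and with DOX. In WT37 it was at 260 and 18.1 CPM, and in WT5 at 218 and 67.2 CPM. All 3 libraries without DOX lay above all 3 with DOX. The log2 fold change in WT2 and WT37 was -3.70 (SE 0.12), and the change in WT5 was -1.69 with a 95% interval of -1.85 to -1.54. Such intervals for WT5 are exact (conditional binomial) and cover counting error only, since WT5 has 1 library per condition. ELP5 lies opposite CLDN7, and its reads could not be separated if strand was ignored in counting.

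S100A14, an S100 calcium-binding protein of epithelia (ENSG00000189334, chromosome 1, 153614255 to 153616986), went from 402 to 55.9 CPM in WT2, from 648 to 54.8 in WT37 and from 436 to 197 in WT5. Its groups did not overlap either, and WT5 with DOX stayed above both other libraries with DOX. The log2 fold change was -3.23 (SE 0.14), against -1.14 in WT5. PRR15L fell by 3.07 (SE 0.20) and FXYD3, a regulator of the sodium pump, fell by 3.01 (SE 0.24), with WT5 at -1.05 and -0.58. MAB21L4 fell by 2.68 (SE 0.20), and its WT5 change was -0.76. VIL1, the brush border protein villin (ENSG00000127831), went from 6.93 to 2.49 CPM in WT2, from 12.9 to 0.782 in WT37 and from 8.10 to 4.15 in WT5. Its log2 fold change was -2.68 (SE 0.46), and its fall was the larger in WT37 (-3.60 against -1.37 in WT2).

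PRSS22, a serine protease of epithelia, is the exception among the 8 largest falls. It went from 24.3 to 6.30 CPM in WT2 and from 33.6 to 4.17 in WT37, a log2 fold change of -2.50 (SE 0.24), but from 14.1 to 14.9 CPM in WT5. The WT5 change of 0.08 had an interval of -0.35 to 0.51, so neither a rise nor a small fall was detectable there at this depth.

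The rises reached lower levels. LGALS1, which encodes the lectin galectin-1 (ENSG00000100097, chromosome 22, 37675608 to 37679806), went from 5 to 33 reads in WT2, from 4 to 245 in WT37 and from 15 to 53 in WT5. All libraries with DOX were above all without it, and WT37 with DOX (31.9 CPM) stood far above WT2 (5.47 CPM) and WT5 (7.58 CPM) with DOX. The log2 fold change of 4.75 (SE 0.47) was thus fitted over unequal clones, with changes of 2.19 in WT2 and 5.24 in WT37. WT5 changed by 1.5 with an interval of 0.76 to 2.55. Changes within a clone are shrunk in genes with few reads, and fitted values are shrunk less. A WT5 change set beside a fitted value therefore looks smaller in such genes. DESeq2 with the same block did not call LGALS1 (4.18, SE 1.37, adjusted p = 0.0918), and edgeR's robust fit of all 3 clones did not either (3.37, adjusted p = 0.147). LGALS1 was not alone in this, since 40 of the 60 named genes that were called lost their call in that robust fit. Among them were CLDN7 (-2.94, adjusted p = 0.244 in edgeR's robust fit) and S100A14 (-2.505, adjusted p = 0.369). LIX1L rose by 3.21 (SE 0.32), from 8 to 60 reads in WT2 and from 10 to 126 in WT37, and in WT5 from 3 to 17. An antisense gene overlaps it, so its counts are uncertain.

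IL7R, the interleukin-7 receptor, rose by 2.66 (SE 0.34), with 1.18 in WT5. HHIP, which binds hedgehog ligands, rose by 2.45 (SE 0.22), from 13.1 to 50.9 CPM in WT2 and from 5.35 to 44.7 in WT37. In WT5 it went from 4.796 to 9.01 CPM. KCNJ8, a subunit of a potassium channel gated by ATP, rose by 2.52 (SE 0.19) with 0.65 in WT5, and CCDC80, a secreted matrix protein, by 2.54 (SE 0.21) with 0.46 in WT5. The WT5 interval of CCDC80, -0.11 to 1.08, includes 0. HSD3B1, a steroid dehydrogenase, had very unlike base levels (0.963 CPM in WT2 and 18.9 in WT37 without DOX) and close changes (2.06 and 2.51). WT5 changed by 0.90. HSD3B1 has a near-identical paralog, HSD3B2, and its count is uncertain to that extent.

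**Figure D1:**
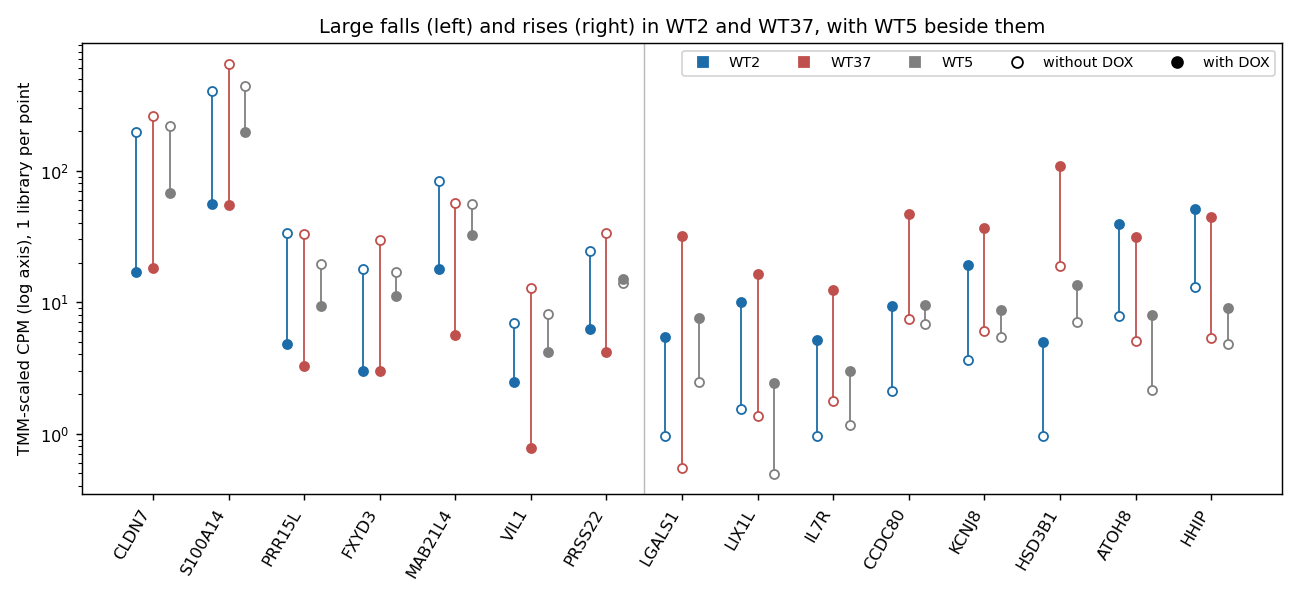
TMM-scaled CPM on a log axis for 7 of the 8 largest falls and for the 8 largest rises in WT2 and WT37 among genes with a mean of at least 5 CPM, with 1 point per library (open without DOX, filled with DOX) and a line joining the libraries of each clone. The lines of WT5 are shorter than those of WT2 and WT37 for all 15 genes, and for PRSS22 the WT5 points lie close together at 14.1 and 14.9 CPM.

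All called genes of the tight junction, desmosome and adherens junction lists were lower with DOX, while many members of these lists were not called. The lists behind these counts were drawn up with earlier results of these data known, so their direction is no independent evidence. Of 21 tested tight junction genes, 10 fell (47.6%, against 3.34% of all tested genes) and 0 rose. Their median log2 fold change was -0.33, where the median of all tested genes was 0.01. Besides CLDN7, the MARVEL protein MARVELD3 fell by 1.42 (SE 0.14). CLDN4 went from 292 to 176 CPM in WT2, from 361 to 186 in WT37 and from 260 to 241 in WT5. Its groups did not overlap, but the libraries of WT5 were close to each other. The scaffold gene TJP3 fell by 1.06 (SE 0.17), with WT5 at 0.03. By clone, the list's median was -0.39 in WT2, -0.37 in WT37 and -0.11 in WT5. LSR, a protein of tricellular junctions, fell by 0.44 (SE 0.08) in WT2 and WT37, while WT5 was higher by 0.18 with an interval of 0.08 to 0.27.

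Among 10 tested desmosome genes, 6 fell (60%, against 3.34% of all tested genes) and 0 rose (median -0.44). DSC2, a desmosomal cadherin, fell by 1.83 (SE 0.26) and changed by -0.94 in WT5, the largest WT5 fall of the called desmosome genes. PERP, a tetraspan membrane protein of desmosomes, went from 2897 to 2338 CPM in WT2, from 2113 to 1140 in WT37 and from 2440 to 1560 in WT5. Here WT5 (-0.65) lay between WT37 (-0.89) and WT2 (-0.31). PPL, which encodes the linker protein periplakin, fell by 0.93 (SE 0.12) and was at 37.5 and 36.7 CPM in WT5 without and with DOX. PKP3, a plakophilin, fell by 0.39 (SE 0.09), whereas WT5 changed by 0.27 with an interval of 0.20 to 0.34.

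Adherens junction and adhesion genes had 5 falls (38.5%, against 3.34% of all tested genes) and 0 rises among 13 tested. Of the 13, 6 were below 0 in both WT2 and WT37 while 3 were above 0 in both. Their median was -0.08 in the fit, and by clone it was -0.14 in WT2, -0.15 in WT37 and -0.20 in WT5. CDH1, which encodes E-cadherin (ENSG00000039068, chromosome 16, 68737225 to 68835548), went from 753 to 527 CPM in WT2, from 871 to 445 in WT37 and from 708 to 659 in WT5. Its log2 fold change was -0.75 (SE 0.10) and its WT5 change -0.10, with an interval of -0.16 to -0.04. Its groups did not overlap, and E-cadherin RNA stood at no less than 445 CPM in any library with DOX. EPCAM, an adhesion molecule of epithelia (ENSG00000119888, chromosome 2, 47345158 to 47387601), fell by 0.91 (SE 0.09), from 1023 to 616 CPM in WT2 and from 729 to 344 in WT37. WT5 went from 915 to 716 CPM, a change of -0.35. CDH3 (P-cadherin) fell by 0.88 (SE 0.11) and changed by -0.26 in WT5.

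The group of apical polarity and epithelial trafficking genes had 9 falls (60%, against 3.34% of all tested genes) and 0 rises among 15 tested. Its median was -0.65. TMC4, a membrane channel of epithelia, fell by 2.22 (SE 0.22), AP1M2, an adaptor subunit for basolateral sorting, by 1.85 (SE 0.14) and the small GTPase RAB25 by 1.67 (SE 0.15). AP1M2 (ENSG00000129354, chromosome 19, 10572671 to 10587315) went from 115 to 39.8 CPM in WT2, from 99.1 to 21.9 in WT37 and from 87.5 to 52.3 in WT5. Its groups did not overlap. WT5 changed by -0.74 in AP1M2 but by -0.14 in RAB25, whose WT5 interval of -0.37 to 0.09 includes 0. MYO5B, a motor of apical recycling, had nearly 1 size of change in all clones, -0.45 in WT2, -0.49 in WT37 and -0.53 in WT5. The polarity gene CRB3 fell by 0.83 (SE 0.16), with -0.27 in WT5.

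All 5 tested keratins were called as falls, against 3.34% of all tested genes. KRT8 went from 1637 to 890 CPM in WT2, from 1084 to 561 in WT37 and from 945 to 895 in WT5, with a log2 fold change of -0.92 (SE 0.08) and a WT5 change of -0.08. KRT18, its partner in the filaments of simple epithelia, fell by 0.84 (SE 0.09) and changed by -0.38 in WT5. KRT8 and KRT18 have many near-identical copies and lie on opposite strands over each other, so their counts are uncertain. Of 9 tested surface serine proteases and inhibitors, 5 fell (55.6%, against 3.34% of all tested genes) and 0 rose. The medians were -0.68 in WT2, -0.90 in WT37 and 0.01 in WT5. ST14, the membrane protease matriptase, fell by 0.79 (SE 0.09), from 941 to 587 CPM in WT2 and from 982 to 527 in WT37, while WT5 went from 743 to 698 CPM.

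Regulators of epithelial transcription and splicing had 3 falls (25%, against 3.34% of all tested genes) and 0 rises among 12 tested. GRHL2, a grainyhead transcription factor of epithelia (ENSG00000083307), went from 42.6 to 25.2 CPM in WT2, from 52.7 to 23.2 in WT37 and from 45.6 to 38.5 in WT5. Its log2 fold change was -0.99 (SE 0.14), and its WT5 change of -0.25 had an interval that just reached 0. ELF3, an ETS factor of epithelia, fell by 0.60 (SE 0.11), with WT5 at 0.01. ESRP1, an epithelial splicing regulator, was not called (-0.60, SE 0.42), and its change was 0.41 in WT2, -1.13 in WT37 and 0.45 in WT5 at no more than 42 reads in a library.

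Intestinal identity genes did not go 1 way. CDX2, a homeobox factor of the intestine, rose by 0.49 (SE 0.08) and FOXA1, a forkhead factor of endodermal epithelia, by 0.65 (SE 0.11), while SOX9 fell by 0.56 (SE 0.08), as did VIL1. CDX2 went from 480 to 712 CPM in WT2, from 591 to 794 in WT37 and from 452 to 547 in WT5. It was higher with DOX in each clone, although WT5 with DOX stayed below WT37 without it. FOXA1 and SOX9 went the other way in WT5, by -0.65 (interval -0.88 to -0.42) and 0.14 (interval 0.06 to 0.23).

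Mesenchymal genes were sparse in these cells, with 6 of the 18 in the table passing the low-count filter. Of those, 4 rose (66.7%, against 2.98% of all tested genes) and 0 fell. A gene could pass that filter through the libraries of 1 condition alone, so a sparse gene that is high only with DOX could enter. LGALS1, for example, had 5 and 4 reads without DOX in WT2 and WT37, and 33 and 245 with it. A sparse gene that is high only without DOX could enter as well, so among sparse genes the filter favours those that change. The direction of the 4 calls is no independent evidence, and those 6 genes do not stand for the whole list. S100A4, a calcium-binding protein, went from 6.93 to 11.3 CPM in WT2, from 13.9 to 35.3 in WT37 and from 8.10 to 17.3 in WT5, and rose by 1.14 (SE 0.20) with 1.07 in WT5. CALD1 (the actin-binding protein caldesmon) rose by 1.73 (SE 0.23), with 0.59 in WT5. TNC, the matrix protein tenascin-C, rose by 1.23 (SE 0.25) in WT2 and WT37, and in WT5 it went from 22.2 to 16.9 CPM. VIM (vimentin) was filtered as low at 1 and 5 reads in WT2, 5 and 15 in WT37 and 3 and 8 in WT5. ZEB1, the close relative of ZEB2, was filtered too, with 1 read and 4 reads in WT2, 1 and 11 in WT37, and 1 and 9 in WT5. FN1 (fibronectin) was not called, at -0.61 (SE 0.25). EMT transcription factors had 0 calls among 4 tested, and SNAI1 stood at -0.28 (SE 0.26).

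BMP targets and components had 7 rises (50%, against 2.98% of all tested genes) and 0 falls among 14 tested. Their medians were 0.33 in WT2, 0.59 in WT37 and 0.21 in WT5. ATOH8, a helix-loop-helix factor induced by BMP signals (ENSG00000168874, chromosome 2, 85751344 to 85788066), went from 7.89 to 39.1 CPM in WT2, from 5.08 to 31.3 in WT37 and from 2.15 to 8.004 in WT5. Its groups did not overlap, though WT5 with DOX was close to WT2 without it at 7.89. The increase of 2.46 (SE 0.18) was close in both clones, and WT5 changed by 1.76 with an interval of 1.01 to 2.89. ID3, an inhibitor of helix-loop-helix factors, rose by 0.54 (SE 0.09), with 0.67 in WT2, 0.42 in WT37 and 0.59 in WT5. ID2 rose by 0.62 (SE 0.12), with 0.57 in WT5. The ligand gene BMP2 rose by 1.86 (SE 0.30) and the receptor gene BMPR2 by 0.71 (SE 0.14), where WT5 was at 0.09 and -0.25 with intervals that include 0. Feedback inhibitor SMAD6 rose by 1.25 (SE 0.27) from few reads.

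TGF-beta genes had 2 rises and 1 fall among 16 tested (18.8% called, against 6.31% of all tested genes). TGFBI, a matrix protein induced by TGF-beta, rose by 0.62 (SE 0.10) and LTBP1, which tethers the latent ligand, by 0.72 (SE 0.16), while the co-receptor TGFBR3 fell by 0.77 (SE 0.13). Their WT5 changes were -0.09, 0.33 and -0.20. Among 14 tested Wnt targets and stem cell genes, 2 rose and 1 fell (21.4% called, against 6.31%). AXIN2, a feedback gene of Wnt signalling, went from 161 to 242 CPM in WT2, from 175 to 404 in WT37 and from 172 to 161 in WT5. Its rise of 0.91 (SE 0.13) in WT2 and WT37 stands beside a WT5 change of -0.09, and DESeq2 did not call AXIN2 (adjusted p = 0.148). EPHB2, an ephrin receptor, fell by 0.54 (SE 0.10).

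Detoxification genes that the factor NRF2 is known to induce had 4 rises (28.6%, against 2.98% of all tested genes) and 0 falls among 14 tested. Their medians were 0.54 in WT2, 0.27 in WT37 and 0.30 in WT5. In WT5, 8 of the 14 were above 0 and 6 below. NQO1, a quinone reductase, went from 635 to 1235 CPM in WT2, from 715 to 1218 in WT37 and from 423 to 612 in WT5. The rise was 0.86 (SE 0.08) in WT2 and WT37, and 0.53 in WT5. ALDH3A1, an aldehyde dehydrogenase, rose by 1.61 (SE 0.17) and was the larger in WT2 (1.998 against 1.12 in WT37). FTL, the light chain of ferritin, rose by 0.58 (SE 0.08) with 0.49 in WT5. TXNRD1 rose by 0.44 (SE 0.08), but WT5 was at -0.13 with an interval of -0.24 to -0.02.

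Interferon response genes had 4 rises (21.1%, against 2.98% of all tested genes) and 0 falls among 19 tested, all 4 also higher in WT5. The list as a whole moved little, with medians of -0.01 in WT2, 0.19 in WT37 and 0.10 in WT5. Of the 19 genes, 8 were above 0 in both WT2 and WT37, and 2 were below 0 in both. IFI6 rose by 0.67 (SE 0.14) in WT2 and WT37, and WT5 changed by 1.17, from 15.5 to 35.3 CPM, more than either. IFIT1 rose by 1.59 (SE 0.40) with 1.71 in WT5, and the class I antigen presentation genes B2M and HLA-B by 0.44 (SE 0.10) and 0.41 (SE 0.09), with 0.32 and 0.24 in WT5.

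Matrix remodelling genes were called in both directions, 3 higher and 3 lower of 13 (46.2% called, against 6.31% of all tested genes). CEMIP, a protein of hyaluronan breakdown, went from 58.9 to 21.4 CPM in WT2, from 85.9 to 26.3 in WT37 and from 40.9 to 19.7 in WT5. Its groups did not overlap, and the fall of 1.60 (SE 0.12) stands beside -1.04 in WT5. TIMP2, an inhibitor of metalloproteinases, rose by 0.62 (SE 0.08), with 0.44 in WT5. Integrins and laminins had 4 falls (21.1%, against 3.34% of all tested genes) and 0 rises among 19 tested. ITGB6, an integrin chain of epithelia, fell by 1.28 (SE 0.27) with -1.19 in WT5. Of 10 cytokines and chemokines, CXCL5 was the 1 called (10%, against 6.31% of all tested genes). This neutrophil attractant went from 458 to 95.3 CPM in WT2, from 494 to 85.5 in WT37 and from 348 to 216 in WT5. Its log2 fold change was -2.40 (SE 0.10), and WT5 changed by -0.69. Of 6 tested genes of differentiated colon epithelium, AGR2 was the 1 called (16.7%, against 6.31% of all tested genes). AGR2, a protein disulfide isomerase needed for mucin folding, fell by 0.94 (SE 0.11), with -0.57 in WT5.

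Genes of growth and metabolism had few calls. G1/S and replication genes had 2 falls among 24 tested, mitosis genes 1 fall among 24, glycolysis genes 1 rise and 1 fall among 24, and sterol and fatty acid genes 1 rise among 27. Large ribosomal subunit genes had 1 rise among 43, mitochondrial ribosome genes 1 rise and 1 fall among 47, and nuclear-encoded respiratory chain genes 2 of each among 47. These counts of 2.33% to 8.51% lie near the 6.31% of all tested genes. In the integrated stress response, 1 of 20 tested genes rose and 2 fell (15% called, against 6.31% of all tested genes). PHGDH, the first enzyme of serine synthesis, rose by 0.66 (SE 0.10) with 0.72 in WT5, while GDF15, a stress cytokine, fell by 0.67 (SE 0.09) with -0.04 in WT5. The unfolded protein response and heat shock list had 1 rise among 23 (4.35% called). This was the small heat shock protein HSPB1 (0.31, SE 0.08), with 0.52 in WT5. Among CDK inhibitors and p53 targets GDF15 was the 1 called of 17 (5.88%). Of 19 actin and YAP target genes 2 rose, CALD1 and PALLD, and 1 fell, TPM1 (15.8% called, against 6.31%).

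**Figure D2:**
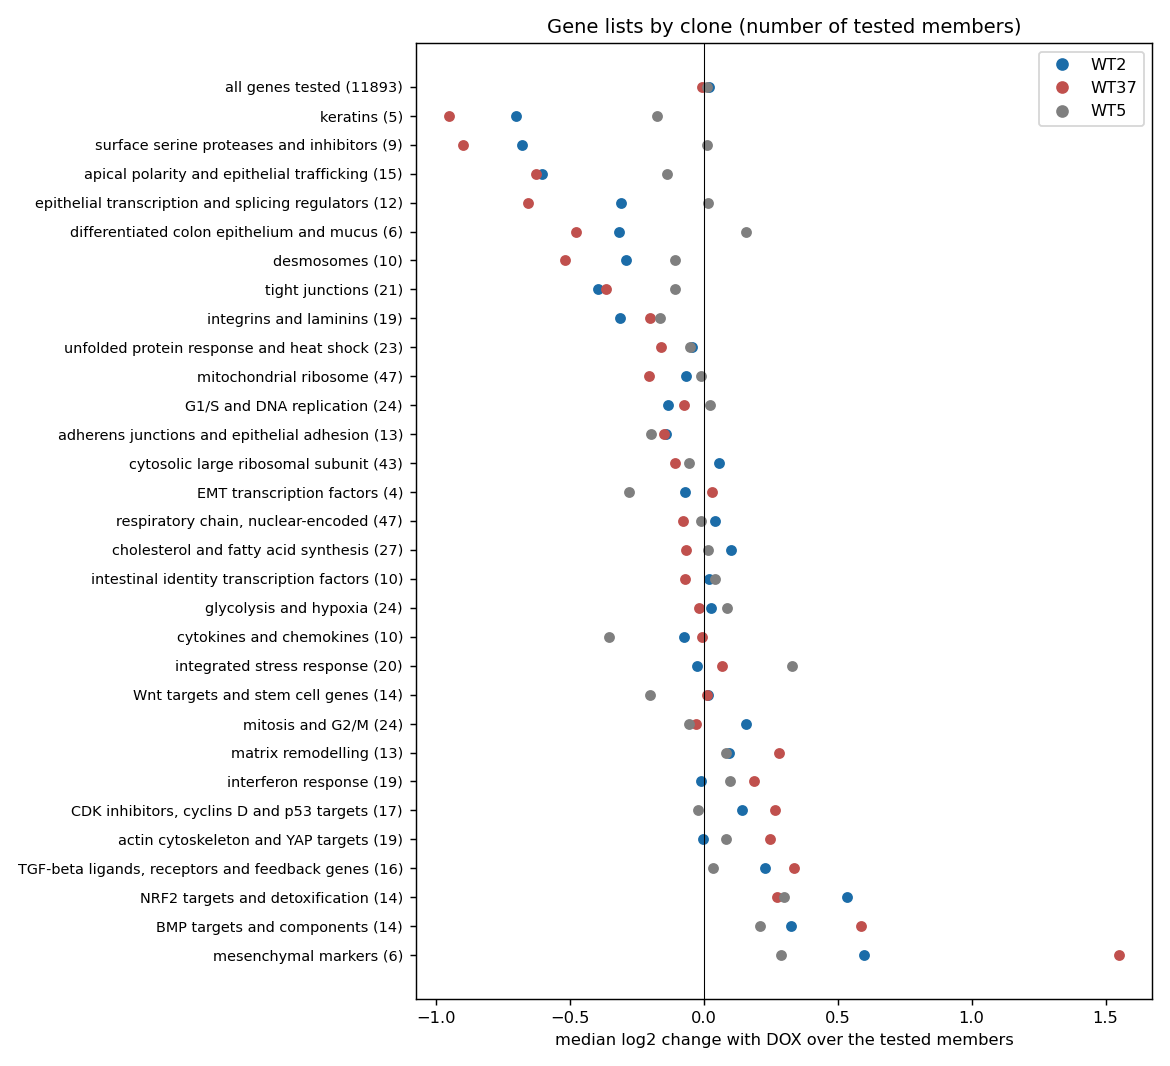
Median log2 change with DOX over the tested members of each list with at least 3 of them, with 1 point per clone, and all tested genes on the top row. In WT2 and WT37 keratins are lowest (-0.70 and -0.95) and mesenchymal markers highest (0.60 and 1.55), but not in WT5, where they are at -0.18 and 0.29. For tight junctions, desmosomes and polarity genes the WT5 point lies between 0 and the points of the other clones, and for adherens junction genes it lies beyond both (-0.20 against -0.14 and -0.15).

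The libraries of WT5 did not enter the fit and shared no control with it. WT5 was set aside because its change was smaller, so its values took part in the choice of clones, and the size of its change is a description. Of the 751 called genes, 492 had the same sign of change in WT5 (65.5%), against 52.7% of all tested genes and 51.8% of those not called. Falls and rises were close in this respect, with 265 of 397 (66.8%) and 227 of 354 (64.1%). Among called genes that changed by at least 1 on the log2 scale the share was 73.1%, with 76.3% of the falls and 69.6% of the rises. The WT5 interval lay past 0 in the called direction for 253 genes (33.7%) and past 0 against it for 101 (13.4%), where over all tested genes these shares were 15.9% and 13.1%. For falls of at least 1 the counts were 47 along and 3 against. Genes of 1 cell line change together and are not independent, so these shares carry no interval or test.

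Along the called direction, the median change was 0.60 in WT2, 0.78 in WT37 and 0.14 in WT5, where the choice of genes raises the first 2 values and the choice of clones lowers the third. For called genes of at least 1 the medians were 1.24, 1.61 and 0.41. With its sign taken along the called direction, the WT5 change was below both other clones in 686 of the 751 genes (91.3%). Over all tested genes this share was 57.7%. WT5 changes against the call count here as lower, whatever their size. It was above both in 19 called genes. These counts restate how the clones and genes were chosen. Between the 2 clones that chose the genes, WT37 had the larger change in 546 and WT2 in 205. Whether a gene's change differed between clones was not tested, since each clone has 1 library per condition.

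Across 9550 genes with a mean of at least 5 CPM, the changes of WT2 and WT37 had a Pearson r of 0.61 and a Spearman rho of 0.48. For WT2 and WT5 these were 0.12 and 0.03, and for WT37 and WT5 0.21 and 0.14. These are descriptions across genes of pairs of libraries, which share library preparation, and not tests. By size, 173 of these genes changed by at least 1 in WT2, 291 in WT37 and 96 in WT5, while the interquartile range was 0.35, 0.41 and 0.36. WT5 was thus not narrower than WT2 over the bulk of genes, although fewer of its genes changed by at least 1.

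The same look-up was run with each clone held out in turn, for the 500 genes with the smallest p in the fit of the other pair. With WT5 held out, 71.0% had the same sign and the median aligned change was 0.20. With WT37 held out, the genes of WT2 and WT5 had the same sign in 92.4% and a median of 0.63, and with WT2 held out the genes of WT5 and WT37 had the same sign in 86.2% and a median of 0.51. Over all tested genes the shares were 52.7%, 63.4% and 60.5%. The pairs that include WT5 called 21 genes (WT2 and WT5) and 35 genes (WT5 and WT37), and their coefficients of variation were 11.7% and 13.0%.

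**Figure D3:**
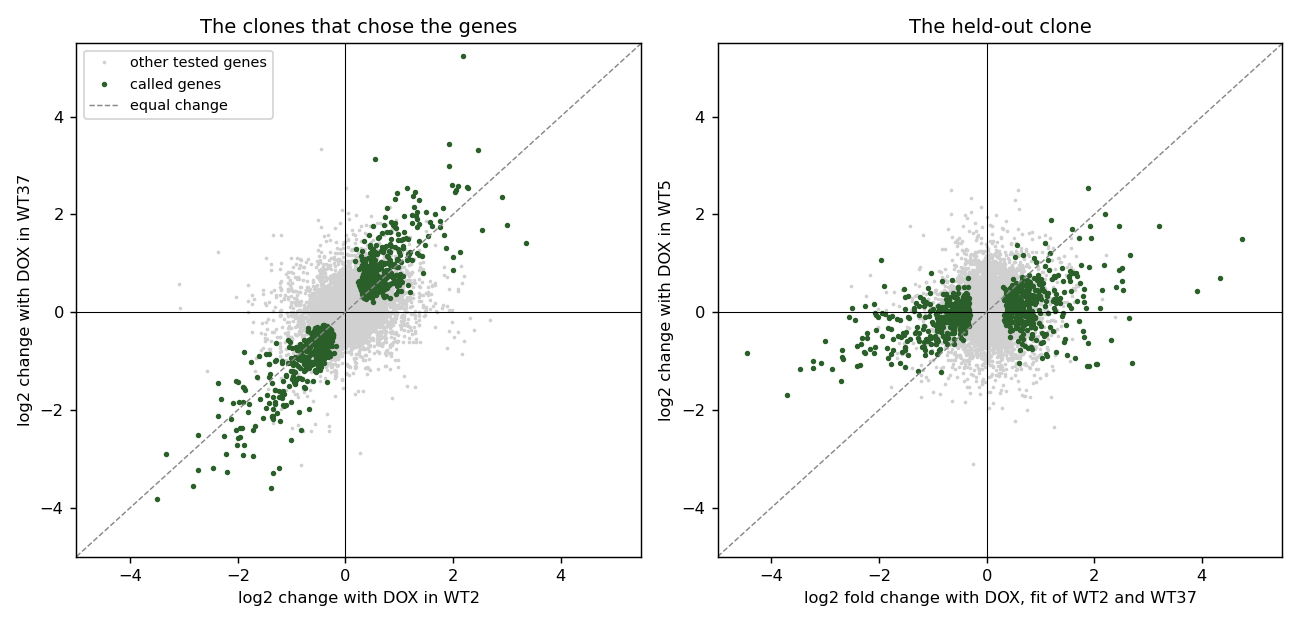
Left, log2 change with DOX in WT37 against that in WT2, and right, log2 change in the held-out WT5 against the log2 fold change fitted to WT2 and WT37, with 1 point per tested gene, called genes in green and a dashed line of equal change. On the left called genes lie along the dashed line, and on the right they lie closer to the horizontal axis, with a median of 0.14 along the called direction.

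Some called genes moved strongly along in WT5 and others strongly against. Along the called direction, the largest WT5 changes among genes with a mean of at least 5 CPM were those of SMARCD3 (1.88), LIX1L (1.77), ATOH8 (1.76) and CLDN7 (-1.69). SMARCD3, a subunit of a chromatin remodelling complex, went from 17 to 37 reads in WT2, from 21 to 60 in WT37 and from 5 to 27 in WT5. The largest against it were those of THOC3 (-1.11), CRTC2 (-1.10), HIBADH (-1.07) and SMIM30 (-1.04), all called as rises. THOC3, a subunit of an mRNA export complex, went from 22.7 to 54.7 CPM in WT2 and from 15.7 to 82.5 in WT37, but from 44.7 to 20.6 in WT5. CRTC2, a coactivator of the factor CREB, went from 10.6 to 23.7 CPM in WT2, from 5.90 to 35.9 in WT37 and from 17.2 to 7.86 in WT5, and DESeq2 did not call it (adjusted p = 0.174). The WT5 library without DOX was above that of WT2 and WT37 without DOX for both genes, and with DOX it was below. RPL30, a protein of the large ribosomal subunit, rose by 0.62 (SE 0.09) in WT2 and WT37 and was lower by 0.78 on the log2 scale in WT5.

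The base composition of the counted transcript ends moved with the sign of the WT5 change. For each gene the GC share of the last 500 bases of its longest transcript was taken, and the tested genes were ordered by it into 4 bins of near-equal size. From the bin lowest in GC to the highest, the median change with DOX went from 0.07 to -0.04 in WT2, from 0.08 to -0.06 in WT37 and from -0.06 to 0.15 in WT5. The slope in WT5 was thus opposite to that in the other clones. The calls themselves followed the slope of WT2 and WT37. From the lowest to the highest bin, called falls numbered 57, 74, 107 and 159, and called rises 124, 87, 71 and 71. Called falls had the same sign in WT5 in 86.0%, 81.1%, 73.8% and 48.4% from the lowest to the highest bin, and called rises in 56.5%, 60.9%, 63.4% and 83.1%. The 50 falls whose WT5 interval lay against the call had a median GC of 59.6%, against 42.1% for the 132 that lay along it and 42.0% for all tested genes. With the GC trend of each library removed, an alternative chosen after seeing the data, 67.9% of the 1248 genes called in that fit had the same sign in WT5, against 54.6% of all tested genes. Of the 751 genes called without it, 71.8% had the same sign once the trend was removed from WT5, and PRSS22 (GC 63.0%) went from 0.08 to -0.20 in WT5. What gave the trend was not tested.

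**Figure D4:**
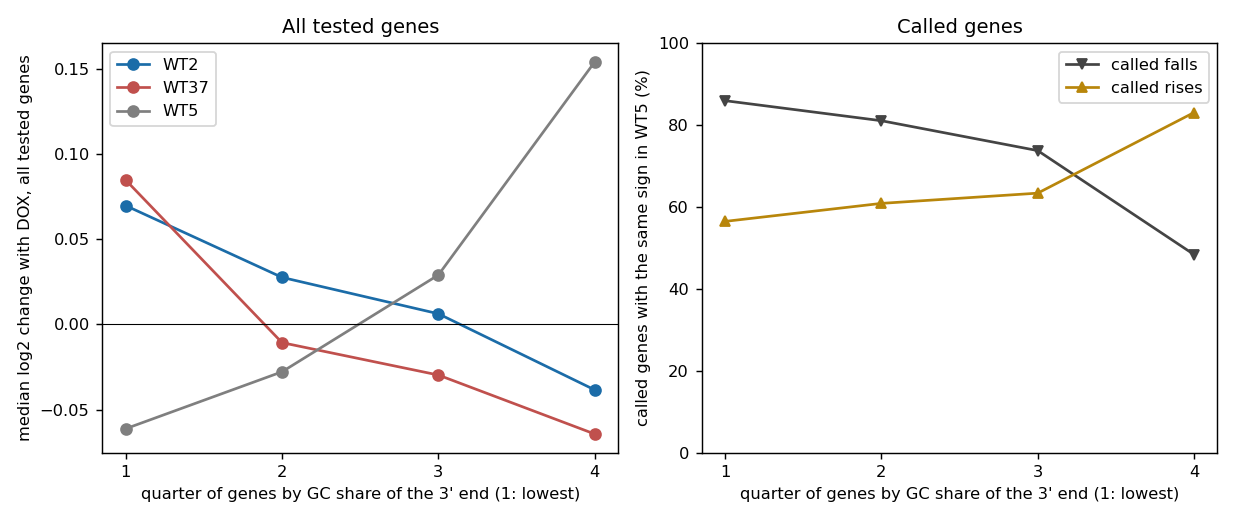
Left, median log2 change with DOX of all tested genes in each of 4 bins of 3'-end GC share for each clone, and right, share of called falls and called rises with the same sign in WT5 in each bin. WT2 and WT37 slope down from 0.07 and 0.08, WT5 slopes up to 0.15, and the share for falls goes from 86.0% down to 48.4% while that for rises goes up to 83.1%.

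The ZEB proteins are known to bind the E-box hexamer CAGGTG, which reads CACCTG on the other strand. It was searched on both strands in promoters from RefSeq (GRCh38.p14), from 250 bases before to 50 after the transcription start, which were found for 288 of the 397 called falls, 288 of the 354 called rises and 9181 of the 11893 tested genes. Shown here are promoters of called falls that hold at least 2 copies, from TMC4 (chr19:54173111-54173410, minus strand), MACC1 (chr7:20217335-20217634, minus strand) and LCN2 (chr9:128149203-128149502, plus strand), because they are the largest falls with a repeated hexamer and a WT5 change below 0, apart from PRSS2, whose near-identical relatives make its count uncertain. Sequences run 5' to 3' along the gene, and capitals mark the hexamer.
TMC4 promoter: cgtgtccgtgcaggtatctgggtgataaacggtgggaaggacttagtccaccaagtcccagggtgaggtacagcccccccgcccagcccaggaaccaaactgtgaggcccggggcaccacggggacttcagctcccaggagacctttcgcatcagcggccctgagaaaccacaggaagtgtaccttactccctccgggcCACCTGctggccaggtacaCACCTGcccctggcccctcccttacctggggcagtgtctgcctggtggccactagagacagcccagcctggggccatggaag
MACC1 promoter: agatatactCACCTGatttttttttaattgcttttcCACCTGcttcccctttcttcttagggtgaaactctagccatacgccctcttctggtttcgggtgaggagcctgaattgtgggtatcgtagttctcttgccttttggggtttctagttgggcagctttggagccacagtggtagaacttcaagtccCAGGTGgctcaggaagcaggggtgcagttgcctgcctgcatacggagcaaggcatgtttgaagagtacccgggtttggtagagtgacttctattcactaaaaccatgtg
LCN2 promoter: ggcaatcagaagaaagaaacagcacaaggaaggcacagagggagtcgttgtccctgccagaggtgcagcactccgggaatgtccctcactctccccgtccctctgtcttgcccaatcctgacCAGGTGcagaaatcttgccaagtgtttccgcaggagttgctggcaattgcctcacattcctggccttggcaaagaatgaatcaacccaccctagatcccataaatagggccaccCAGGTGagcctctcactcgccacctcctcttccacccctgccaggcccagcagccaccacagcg

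TMC4 holds 2 copies, MACC1 holds 3 and LCN2 holds 2. MACC1, a regulator of MET expression known from colon cancer, went from 89.5 to 22.9 CPM in WT2, from 57.5 to 10.8 in WT37 and from 60.4 to 35.9 in WT5. Its log2 fold change was -2.17 (SE 0.14) and its WT5 change -0.75. TMC4 went from 21.0 to 5.31 CPM in WT2, from 18.7 to 3.39 in WT37 and from 13.2 to 9.15 in WT5. LCN2, an iron-carrier binding protein of the innate defence, went from 59 to 28 reads in WT2, from 61 to 5 in WT37 and from 36 to 41 in WT5. Its change was far larger in WT37 (-3.18) than in WT2 (-1.24). It was -0.02 in WT5, with an interval of -0.70 to 0.66 that shows no fall there.

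Over all matched genes, 109 of 288 called falls held the hexamer (37.8%), against 37 of 288 called rises (12.8%) and 1677 of 9181 tested genes (18.3%). Over all 27305 promoters of the table the share was 20.6%. For falls of at least 1 on the log2 scale it was 46 of 85 (54.1%), and for rises of that size 8 of 77 (10.4%). At least 2 copies stood in 34 of the 288 falls (11.8%), in 2 of the 288 rises (0.694%) and in 2.56% of the tested genes. Falls with the same sign in WT5 held it in 81 of 189 cases (42.9%). The E-boxes CACGTG and CAGCTG stood in 10.1% and 15.3% of called falls and in 10.3% and 16.2% of tested genes. Promoter GC was close between the sets, with medians of 66.3% for falls, 67.2% for rises and 65.7% for tested genes. In each of 4 bins of promoter GC, falls held the hexamer more often (30.1% to 47.7%) than tested genes did (16.6% to 19.6%).

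Genes with a mean of at least 5 CPM were also ordered by their change in 1 clone into 10 bins. The bin with the lowest change held the hexamer in 26.3% of promoters in WT2, 26.9% in WT37 and 21.3% in WT5. In WT5 bin 3 held more, 22.6%, whereas in WT2 and WT37 the lowest bin held the most. Among the falls named above, AP1M2 held 3 copies, and S100A14, MAB21L4 and AGR2 held 1, while CLDN7, CXCL5, CEMIP, KRT8 and FXYD3 held 0 in this window. Among the named rises, FOXA1 and PHGDH held 1, while ATOH8, HHIP, KCNJ8, IL7R, LIX1L, CDX2 and NQO1 held 0. CLDN7, the largest of the named falls, thus has no such letters in the window, which says nothing about binding elsewhere. A match is a description of letters and not a measured site, and no binding was measured in these libraries.

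**Figure D5:**
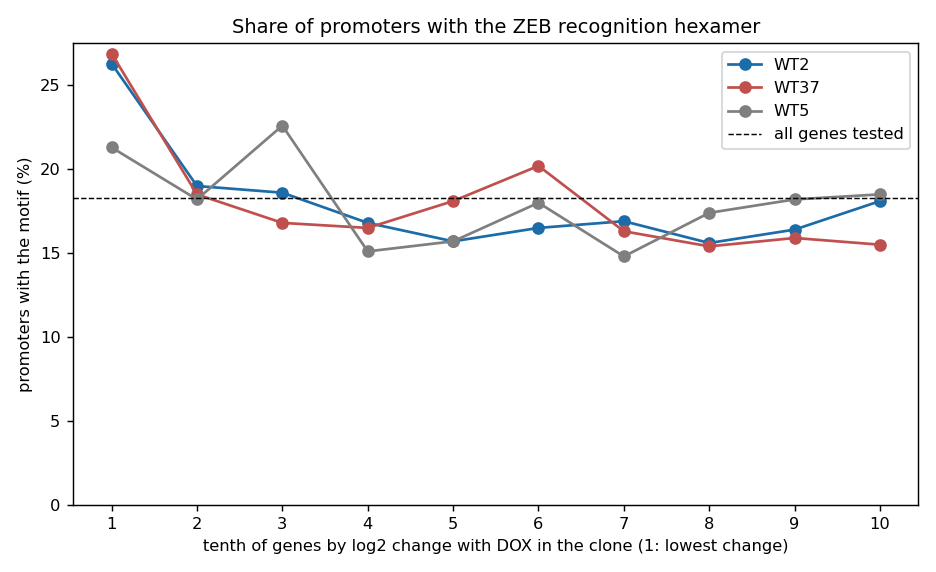
Share of promoters with CAGGTG or CACCTG in each of 10 bins of genes ordered by their log2 change with DOX in 1 clone, from the lowest change on the left, with a dashed line at 18.3% for all tested genes. The lowest bin stands above the line in all 3 clones, at 26.3% in WT2, 26.9% in WT37 and 21.3% in WT5, where bin 3 is higher at 22.6%.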

How the data were processed

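Total RNA of 6 DLD-1 libraries was turned into libraries with a QuantSeq 3' mRNA-Seq FWD kit, per the labels' protocols. The authors deposited raw read counts per Ensembl gene, and the submitters' processing notes name GRCh38 and DESeq2. The aligner, the annotation and the use of strand in counting were not given in the sources used here. Of 27264 gene rows 3634 were at 0 in all libraries, and 4 rows that name no gene (32.2% to 39.8% of reads) were left out. Symbols came from an identifier table (26748) and GENCODE 29 (166), positions from GENCODE 29.

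The members and gene lists were chosen with earlier results of these data known. In R 4.3.3, edgeR 4.0.16 tested the counts of the 4 libraries of WT2 and WT37 with TMM scaling, filterByExpr and the clone as block. Across genes, the deviations of a clone's libraries from the group means correlated (r = 0.49 in WT2, 0.56 in WT37 and 0.28 in WT5), and the labels give them 1 clone name, so the clones pair the samples. Standard errors are the log2 fold change divided by the square root of F. Changes within a clone are on the log2 scale of TMM-scaled CPM with a prior count of 2. That prior count shrinks them in genes with few reads, more than the fitted log2 fold changes. For IL7R the fitted 2.66 is thus above the changes of both WT2 (2.10) and WT37 (2.59). P-values set the DOX change against the spread left between these libraries after the block, and do not speak for clones in general. Genes were named by a rule: the 8 largest rises and falls with a mean of at least 5 CPM, the called member with the smallest p in each list and direction, the 4 with the largest WT5 change along and against the call, the 3 larger in each clone, and 10 fixed genes, which include ZEB2, CDH1 and VIM. Other list members, MACC1 and the promoters were named after their values were seen. Alternatives were DESeq2 size factors, other filters, DESeq2 1.42.0, limma-voom (limma 3.58.1), no block, left-out libraries and clones, other thresholds and, chosen after seeing the data, GC trend removal and robust moderation. The fit was tested on simulated data. Some genes that the naming rule picked are not reported here. ELP5, USP37, LIX1L-AS1, HHIP-AS1, SEC14L5, MESD, TIMM8B, MATN2, RBKS and others lie opposite CLDN7, VIL1, LIX1L, HHIP, PPL, CEMIP, SDHD, RPL30 and MRPL33, and CEP295NL, VPS51 and BABAM2 lie on the strand of TIMP2, TM7SF2 and MRPL33, so these counts are uncertain.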

Additional observations from a re-analysis of the deposited data

Results flagged for a closer look

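In 15 of the 60 called genes picked by the naming rule, both WT2 and WT37 moved one way with DOX and WT5 the other way. Beside this, 65.5% of all called genes and 52.7% of all tested genes had the same sign in WT5. THOC3, CRTC2, HIBADH and SMIM30 were picked for a large WT5 change against the call, so their place here was fixed by the rule. The difference between the clones was not tested for any of them, since each clone has 1 library per condition. Among the called rises, the WT5 change was -1.11 for THOC3, -1.10 for CRTC2, -1.07 for HIBADH, -1.04 for SMIM30, -0.78 for RPL30, -0.65 for FOXA1, -0.57 for SDHD, -0.32 for PGAM1 and -0.20 for MRPL33, each with a 95% counting interval below 0. It was -0.09058 for TGFBI and -0.08888 for AXIN2, with intervals that include 0. Among the called falls, it was 0.14 for SOX9 with an interval above 0. The falls PRSS22 (0.07909), MRPS12 (0.10) and AURKB (0.003169) had WT5 intervals that include 0. Further called genes chosen after their values were seen also went the other way in WT5, among them LSR (0.18), PKP3 (0.27), TNC (-0.39) and TXNRD1 (-0.13), each with an interval that excludes 0.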

How the results depend on the processing

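With the replicate block, the count of 751 calls stayed within 1.5 times of itself with limma-voom (886), size factors (816), the stricter filter (993) and robust moderation (743). It went to 1219 with no filter, 220 with DESeq2, 270 at an adjusted p under 0.01, 216 with at least 1 on the log2 scale, 183 with all 3 clones (152 with robust moderation), 21 with WT2 and WT5, 35 with WT5 and WT37, and 1248 with the GC trend removed. Without the replicate block it was 4, and when 1 library was also left out it was 106 and 43 (WT2 without and with DOX) and 98 and 6 (WT37). With the block, 3 libraries leave no residual degree of freedom, so no such fit was made. Called list members went from 103 to 53 with DESeq2, 54 at 0.01, 38 and 30 (robust) with 3 clones, 2 without the block, and 26, 12, 18 and 4 with those libraries left out in the same order. The share with the same sign in WT5, 65.5%, was 61.1% with the stricter filter, 77.7% with DESeq2, 76.7% at 0.01, 100% without the block, and 79.2%, 83.7%, 81.6% and 100% with those left out. The median WT5 change, 0.137, was 0.28 with DESeq2, 0.277 at 0.01, 1.1 without the block, and 0.458, 0.522, 0.459 and 1.1 with those left out. With 200 and 1000 genes per pair, the share was 79.5% and 61.4% for WT5, 98.5% and 86.5% for WT37, and 95.5% and 80.8% for WT2. The hexamer stood in 37.8% of falls, and at least 2 copies in 11.8%. Of 64 named genes tested, 60 were called in the main fit. Of these 60, 56 lost their call without the block, 29 with 3 clones (40 with robust moderation) and 18 with DESeq2. Lost with DESeq2 were TGFBR3, EPHB2, TPM1, IFI6, HSPB1, CDC6, AURKB, PGAM1, MRPL33 and MRPS12. SDHD, SMARCD3, SMIM30, ATP6V1C2 and TSPOAP1 were lost there too, besides LGALS1, AXIN2 and CRTC2. Signs reversed for HSD3B1 (-1.05, no block and without WT37 with DOX), ESRP1 (0.39, no block and without WT37 without DOX, and 0.41 in WT2 alone, against -1.125 in WT37 alone) and SNAI1 (0.04974, no block and without WT2 with DOX). The cause was not tested, except that stricter thresholds, stricter filters and left-out libraries change the genes or samples in the fit. Depth limits genes with few reads such as ZEB2, VIM and ZEB1, and the WT5 look-up of genes with few reads there.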
